A study of Mus musculus with 5 samples.

Results

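Peaks of Smarca4 ChIP-seq that lay over protein-coding exons and away from promoters were described. A peak was included if it was on 1 of the 19 autosomes, overlapped the coding sequence (CDS) of a protein-coding gene by 1 bp or more, lay more than 1000 bp from every annotated transcription start site (TSS), and held under 20 input reads. Of 78911 peaks in the 4 deposited lists, 78419 were autosomal, 78025 of these held under 20 input reads and 18570 of these overlapped a CDS. A further 7227 were set aside because they lay within 1000 bp of a TSS, which left 11343 coding exon peaks. The 2 Nons lists gave 3048 (female) and 5749 (male) of these, and the 2 Smarcc1 knockdown lists 295 (female) and 2251 (male).

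The libraries came from mouse embryonic stem cells (mESCs) of strain C57/Bl6 with fluorescent reporters in the X-linked gene Hprt, fixed at day 4 of differentiation by withdrawal of 2i. The groups were female (XX) and male (XY) cells with a hairpin against Smarcc1, labelled Smarcc1.6, or with the nontargeting hairpin (Nons). Each group was 1 library, and 1 input library of chromatin without immunoprecipitation was labelled with neither sex nor hairpin. The study's methods name an antibody to Smarca4, while the antibody field of the labels holds the hairpin of each sample. With 1 library per group no difference between conditions has a replicate check, and all intervals here are 95% intervals that cover counting error only. How far Smarcc1 fell was not measured in the files used here.

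Smarca4 (Brg1) is an ATPase of the BAF complex, which slides and evicts nucleosomes, and Smarcc1 (Baf155) is a scaffold subunit on which the complex is built. BAF is best known at promoters and distal enhancers. Coding exons are richer in G and C than the introns around them, and in many species they carry more nucleosomes. Some enhancers are also known to lie in coding exons. A ChIP-seq peak is a place where reads exceed the input, and it does not by itself tell a bound enhancer from other sources of read excess.

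The libraries were shallow in usable reads. A form that accompanies the study gives, for each ChIP library, far fewer uniquely mapped reads than reads sequenced. Each deposited ChIP value was a whole number of reads times 1 fixed factor, by which the library had been scaled to the depth of the input. That factor placed female Nons at 11.6% of the input's depth and female knockdown at 5.99%, and male Nons at 21.8% and male knockdown at 14.2%. The median coding exon peak held 8, 6, 10 and 8 reads of its own library in the same order, and values given below without a name keep this order. A count of 6 reads has an exact Poisson interval of 2.20 to 13.1 reads. Values of a single region therefore describe that region in that library and are not precise.

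The sequences below show what lies under these peaks. Plxnb1, Gcgr, Clca2, Ap2a2 and Sdr42e1 gave the 5 coding exon peaks of highest fold over input in female knockdown, and Mfsd7a and Col6a1 were among the 5 highest in female Nons. Fold over input is the scaled reads divided by the input reads plus 1. Tbx2 was called in 3 lists, and it and Sdr42e1 were added after their values were seen, for their base composition and their wholly coding stretch. Each is a stretch of 300 bases of the peak from GRCm38 (mm10), read 5′ to 3′ on the coding strand of the gene, with coding bases in capitals and intron bases in lower case.
Plxnb1, chr9:109110151-109110450, plus strand: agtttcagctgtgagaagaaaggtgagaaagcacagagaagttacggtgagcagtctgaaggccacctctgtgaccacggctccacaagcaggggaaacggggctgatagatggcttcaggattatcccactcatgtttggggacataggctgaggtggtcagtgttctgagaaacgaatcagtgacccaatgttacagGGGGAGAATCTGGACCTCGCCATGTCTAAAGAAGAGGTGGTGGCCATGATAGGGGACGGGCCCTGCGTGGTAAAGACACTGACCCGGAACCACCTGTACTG
Mfsd7a, chr5:108443368-108443667, minus strand: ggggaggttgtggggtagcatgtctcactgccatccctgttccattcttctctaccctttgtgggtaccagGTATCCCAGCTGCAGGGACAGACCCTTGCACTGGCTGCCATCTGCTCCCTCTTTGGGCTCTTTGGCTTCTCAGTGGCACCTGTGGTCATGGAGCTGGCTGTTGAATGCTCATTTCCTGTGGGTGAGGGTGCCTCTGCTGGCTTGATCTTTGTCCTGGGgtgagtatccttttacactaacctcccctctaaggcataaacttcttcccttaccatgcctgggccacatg
Col6a1, chr10:76716601-76716900, minus strand: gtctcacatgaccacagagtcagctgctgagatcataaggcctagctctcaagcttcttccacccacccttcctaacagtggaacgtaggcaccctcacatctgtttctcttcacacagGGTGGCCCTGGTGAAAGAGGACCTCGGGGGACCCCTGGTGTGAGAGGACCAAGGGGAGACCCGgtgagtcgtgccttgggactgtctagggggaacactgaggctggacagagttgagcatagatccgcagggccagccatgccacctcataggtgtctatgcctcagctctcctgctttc
Gcgr, chr11:120537601-120537900, plus strand: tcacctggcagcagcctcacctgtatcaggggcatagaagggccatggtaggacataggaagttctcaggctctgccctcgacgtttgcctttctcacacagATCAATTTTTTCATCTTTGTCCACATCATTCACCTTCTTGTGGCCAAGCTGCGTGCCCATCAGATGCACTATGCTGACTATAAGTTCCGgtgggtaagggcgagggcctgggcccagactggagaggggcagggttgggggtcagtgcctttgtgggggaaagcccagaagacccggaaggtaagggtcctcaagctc
Clca2, chr3:145095001-145095300, minus strand: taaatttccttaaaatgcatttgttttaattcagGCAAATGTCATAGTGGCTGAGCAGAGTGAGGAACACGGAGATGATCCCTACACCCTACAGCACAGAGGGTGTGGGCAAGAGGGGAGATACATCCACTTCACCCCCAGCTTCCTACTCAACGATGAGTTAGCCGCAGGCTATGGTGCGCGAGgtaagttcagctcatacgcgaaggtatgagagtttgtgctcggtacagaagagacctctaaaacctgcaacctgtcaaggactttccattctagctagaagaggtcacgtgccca
Ap2a2, chr7:141629251-141629550, plus strand: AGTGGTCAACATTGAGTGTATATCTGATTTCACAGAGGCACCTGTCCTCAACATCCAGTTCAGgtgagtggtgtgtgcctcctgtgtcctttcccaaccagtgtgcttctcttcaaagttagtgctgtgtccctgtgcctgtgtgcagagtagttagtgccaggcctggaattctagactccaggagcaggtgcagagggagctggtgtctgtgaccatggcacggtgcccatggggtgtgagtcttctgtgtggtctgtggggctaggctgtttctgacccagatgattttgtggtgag
Sdr42e1, chr8:117662926-117663225, minus strand: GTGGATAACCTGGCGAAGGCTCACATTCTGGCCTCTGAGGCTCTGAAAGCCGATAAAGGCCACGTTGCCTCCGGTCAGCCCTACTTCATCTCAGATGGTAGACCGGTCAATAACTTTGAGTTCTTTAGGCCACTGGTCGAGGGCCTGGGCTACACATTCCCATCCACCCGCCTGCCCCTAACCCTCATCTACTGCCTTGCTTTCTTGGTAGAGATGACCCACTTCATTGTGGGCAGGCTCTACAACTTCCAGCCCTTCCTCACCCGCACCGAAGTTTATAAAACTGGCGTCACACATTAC
Tbx2, chr11:85837801-85838100, plus strand: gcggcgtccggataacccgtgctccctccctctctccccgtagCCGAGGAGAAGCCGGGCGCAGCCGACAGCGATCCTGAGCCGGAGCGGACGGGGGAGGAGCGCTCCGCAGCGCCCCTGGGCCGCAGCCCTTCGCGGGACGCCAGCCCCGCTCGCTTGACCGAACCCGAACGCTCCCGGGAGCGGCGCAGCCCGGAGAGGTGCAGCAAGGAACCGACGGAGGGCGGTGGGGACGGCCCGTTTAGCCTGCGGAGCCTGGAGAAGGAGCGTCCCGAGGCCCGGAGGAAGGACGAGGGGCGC

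Of each 300 bases, 101 coded in Plxnb1, 158 in Mfsd7a, 63 in Col6a1, 89 in Gcgr, 151 in Clca2, 63 in Ap2a2, 300 in Sdr42e1 and 257 in Tbx2. The stretches differed most in CpG dinucleotides, with none in that of Mfsd7a, 1 in Ap2a2 and 40 in Tbx2. GC content was 74.3% in the Tbx2 stretch and 48.7% to 57.3% in the others. The Plxnb1 peak crossed from the intron into coding exon 20 of 36 of a plexin receptor for semaphorins, and held 1 female Nons read, 7 female knockdown reads, 9 male Nons reads, 6 male knockdown reads and no input read. Coding exons are numbered here by blocks of CDS merged over the transcripts of a gene. The Gcgr peak, over coding exon 10 of 13 of the glucagon receptor, held 3, 6, 4 and 3 reads in the same order. The Sdr42e1 peak lay wholly in the last coding exon of a short-chain dehydrogenase gene and held 4, 6, 6 and 4 reads. The female knockdown library, whose list these 3 peaks come from, held fewer reads than male Nons in Plxnb1 and as many in Sdr42e1. Each of its reads was worth 16.7 scaled reads, against 4.59 in male Nons.

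Coding exon peaks were a larger part of the lists than coding sequence is of the genome. CDS bases more than 1000 bp from any TSS made up 1.00% of autosomal bases. Coding bases inside these peaks made up 6.20%, 4.48%, 6.85% and 6.02% of all peak bases. By number, they were 14.6% of female Nons autosomal peaks (14.1 to 15.1, 3048 of 20887) and 11.0% of those of female knockdown (9.81 to 12.2, 295 of 2690). In male cells they were 15.2% of Nons peaks (14.8 to 15.6, 5749 of 37799) and 13.5% of knockdown peaks (13.0 to 14.0, 2251 of 16649). For comparison, promoter peaks within 1000 bp of a TSS were 17.8%, 17.6%, 21.2% and 20.6% of the same lists, and peaks in introns were 37.6%, 37.7%, 35.4% and 35.5%. Reads in the peaks were too few to say that any other exon lacked Smarca4.

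**Figure D1:**
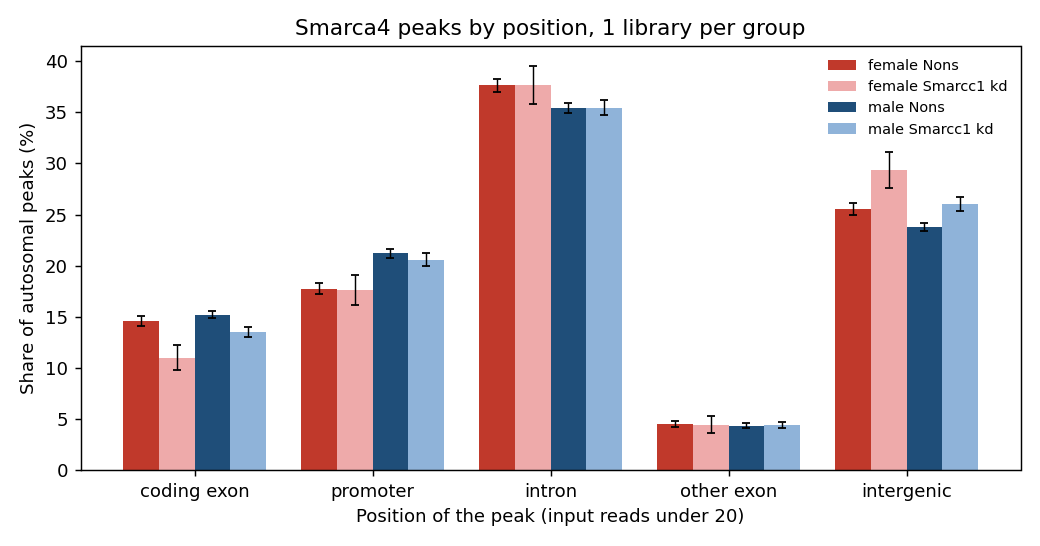
Share of autosomal peaks (%, vertical axis) by position (horizontal axis) in each of the 4 lists, with bars from 0 and exact 95% intervals that cover counting error. Coding exon peaks ran from 11.0% in female knockdown to 15.2% in male Nons, below promoter and intron peaks in every list.

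The coding exon share was lower in each knockdown list than in its Nons list. The odds ratio was 0.721 (0.633 to 0.819) for female knockdown over female Nons and 0.872 (0.827 to 0.919) for male knockdown over male Nons. Female Nons over male Nons gave 0.953 (0.908 to 0.999). Peak width also differed between the knockdown and Nons lists, as the median coding exon peak was 450 bp wide in both Nons lists and 300 bp in both knockdown lists. Between the Nons lists the median was the same, and the mean was 436 bp in female and 430 bp in male Nons. A wider peak meets a CDS more often, but the cause of the differences was not tested. Among peaks of exactly 450 bp the ratios were 0.825 (0.659 to 1.02), 0.947 (0.867 to 1.03) and 0.955 (0.885 to 1.03), all of which include 1. Among peaks of 300 bp they were 0.802 (0.671 to 0.954), 0.881 (0.816 to 0.951) and 0.911 (0.843 to 0.985). These ratios did not hold GC content fixed, and within GC classes the order varied. Among peaks of 450 bp with 55% to 60% GC, the shares were 21.3% (Nons) and 23.0% (knockdown) in females and 21.8% and 21.3% in males. Among peaks of 300 bp in that class they were 17.7% and 14.4% in females and 17.4% and 16.0% in males. Depth and the smallest read number also differed between the lists. Every list was also thinned by expectation to the depth of female knockdown, with a minimum of 5 reads. The shares were then 16.2% (Nons) and 11.0% (knockdown) in females and 18.2% and 15.002% in males. Thinning kept the peaks called at full depth with their widths and called none anew, so the effect of depth on calling was not tested.

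Most coding exon peaks were only partly coding. The coding part was 39.9% to 43.0% of their bases, with a median of 147, 130, 153 and 144 bp. Between 27.8% and 34.1% of the peaks were coding over at least 50% of their bases, and 7.91% to 10.2% were coding throughout. The median distance to the nearest TSS was 4793.5 to 5017 bp. At the limits of the rule, 1250 peaks over a CDS lay beyond the limit of 1000 bp by up to 500 bp and 1666 fell short of it by less than 500 bp, with a median GC content of 56.7% in both. The limit of 20 input reads was missed by up to 5 reads in 54 peaks and reached or passed by under 5 reads in 21.

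The exons under the peaks were longer than coding exons in general. Exons of under 150 bp held 35.4% of all coding bases away from a TSS but 25.2% to 30.1% of those in the peaks. Exons of 1000 bp or more held 16.6% of all such bases and 17.7% to 20.7% of those in the peaks. Last coding exons held 17.3% of the bases in general and 19.2% to 20.4% in the peaks, and internal exons 74.5% against 69.0% to 72.2%. The width of the peaks differs between lists, as given above, and its part in these differences was not tested.

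Coding exon peaks were rich in G and C. Their median GC content was 55.7%, 55.3%, 56.3% and 56.0%, against 53.3%, 52.0%, 53.7% and 53.3% for intron peaks. They held a median of 2.17, 2.00, 2.33 and 2.33 CpG per 100 bp, against 1.33 to 1.56 in introns. Promoter peaks, at 55.3%, 55.3%, 56.5% and 56.2% GC, were close to coding exon peaks. The excess was seen inside the coding sequence at every codon position. Away from a TSS, the third position of a codon was G or C in 56.4% of all codons and in 66.99% to 68.1% of those in the peaks. The first position gave 54.9% against 59.6% to 60.5%, and the second 41.7% against 44.9% to 45.9%. At the third position most base changes leave the amino acid as it is.

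Windows of high GC content lay over coding exons more often across the genome as a whole. When the autosomes were divided into tiles of 450 bp, 3.21% of all tiles met the rule, but 7.43% of tiles of 50% to 55% GC, 17.02% of those of 55% to 60% and 15.7% of those of 60% to 65% did. Among female Nons peaks of that width the shares in the same classes were 11.8%, 21.3% and 28.7%, and among male Nons peaks they were 12.3%, 21.8% and 28.1%. Male knockdown peaks gave 12.02%, 21.3% and 22.6%. Over all GC classes the shares were 14.9% and 15.5% for the Nons lists of females and males, so the distance between peaks and tiles was smaller in proportion within the class of 55% to 60%. Tiles were not filtered for uniqueness of their sequence, and the effect of that on the comparison was not tested.

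**Figure D2:**
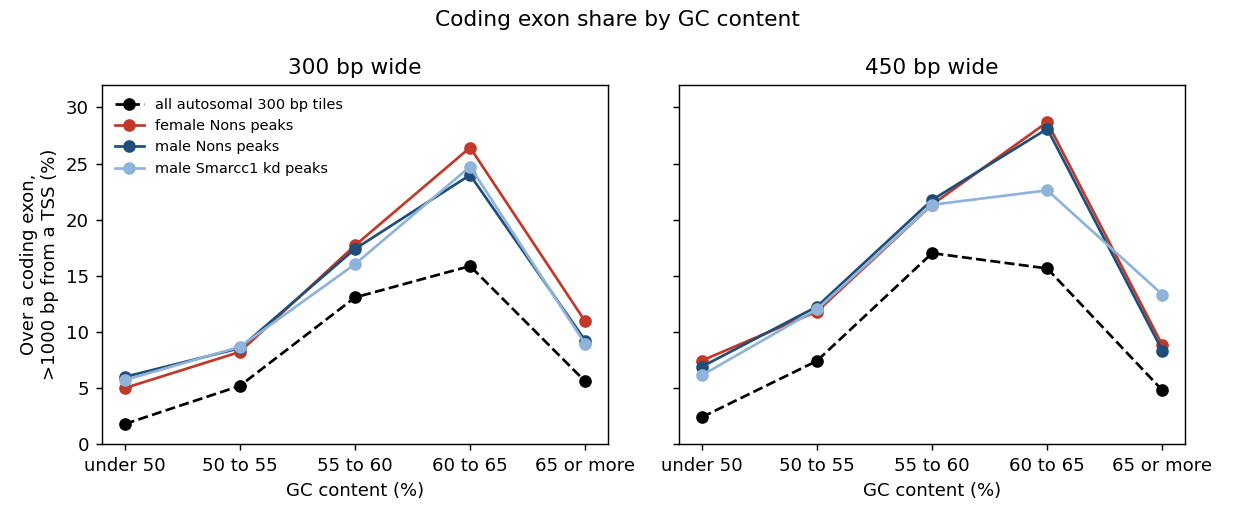
Share of windows that lay over a coding exon and more than 1000 bp from a TSS (%, vertical axis) by GC content (%, horizontal axis), for peaks 300 bp wide (left) and 450 bp wide (right). Solid lines are peaks of 3 lists and dashed lines all autosomal tiles of the same width. Peaks lie above tiles in each GC class, and both rise up to 60% GC or beyond. Female knockdown is left out because it had only 38 peaks of 450 bp with 60% to 65% GC.

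Overlapping coding exon peaks of the 4 lists formed 10149 regions. Of these, 8792 (86.6%) were called in 1 list, 1276 in 2, 78 in 3 and 3 in all 4 lists. The pairs found most often were both Nons lists with 589 regions and both male lists with 422. Both pairs include male Nons, the longest list with 5749 coding exon peaks. Female Nons held 3048 such peaks, male knockdown 2251 and female knockdown 295. These counts were not set against list length, and its part in them was not tested. Coding exon regions were called in 2 or more lists more often (13.4%, 12.7 to 14.0) than promoter regions (10.8%, 10.3 to 11.3), intron regions (8.29%, 7.95 to 8.63) or intergenic regions (7.05%, 6.69 to 7.44). Of the coding exon peaks of female Nons, 604 of 3048 (19.8%, 18.4 to 21.3) overlapped a male Nons peak, and 598 of 5749 male Nons peaks (10.4%) overlapped a female Nons peak. For promoter peaks of female Nons the share in male Nons was 17.4% (16.2 to 18.6), and for intron peaks 12.4%. Of male knockdown coding exon peaks 19.1% overlapped a male Nons peak, and of female knockdown coding exon peaks 10.8% (7.54 to 14.97) overlapped a female Nons peak. GC content moved with this sharing. At 55% to 60% GC, 23.2% (21.1 to 25.4) of female Nons coding exon peaks overlapped a male Nons peak, against 22.0% (19.998 to 24.1) of promoter peaks and 19.3% (17.7 to 20.99) of intron peaks. Female Nons kept this order at 50% to 55% and at 60% to 65% GC. For male knockdown peaks in male Nons, 55% to 60% GC gave 23.3% (coding exon), 23.4% (promoter) and 18.7% (intron). In the same order, 50% to 55% GC gave 14.7%, 11.6% and 9.55%, and 60% to 65% GC gave 24.3%, 21.0% and 26.4%.

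The regions called in all 4 lists lay in Hoxc11, Th and Spns3. The Hoxc11 region, chr15:102955801-102956700, covered all 230 coding bases of the last exon of a homeobox transcription factor, and held 43 CpG. It held 17, 7, 20 and 21 ChIP reads and 8 input reads. Scaled to the input, these were 146, 117, 91.7 and 148 reads, all far above the 8 reads of the input. The Th region, chr7:142893751-142894500, lay over coding exon 13 of 14 of tyrosine hydroxylase, the rate-limiting enzyme of catecholamine synthesis, and held 129, 100.2, 36.7 and 42.2 scaled reads over 8 input reads. Here both female libraries stood above both male libraries, on 15 and 6 reads against 8 and 6. The Spns3 region, over coding exon 7 of 12 of a spinster family transporter gene, held 60.2, 100.2, 41.3 and 63.2 scaled reads over 5 input reads.

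Among the 7 named regions in 3 lists, Efr3b, which encodes a membrane scaffold of a phosphatidylinositol kinase, held the most reads. Its region, chr12:3972751-3973950, had 16, 6, 36 and 23 reads over 2 input reads, or 138, 100.2, 165 and 162 scaled reads. The MAP kinase phosphatase gene Dusp16 was covered over 714 bases of its last coding exon. It held 94.6 scaled reads in female Nons, 101 in male Nons and 77.3 in male knockdown but 16.7, a single read, in female knockdown. Tmprss6, a protease that regulates iron uptake, held 6, 3, 11 and 9 reads with no input read, or 51.6, 50.1, 50.4 and 63.2 scaled reads. The 3 reads of female knockdown have an exact interval of 0.619 to 8.77 reads. Tbx2, a T-box transcription factor, held 10, 2, 8 and 7 reads over 45 CpG, the most CpG among the regions named here. Grk6, Tyw1 and Coro7 completed the set, with 2 or 3 reads in female knockdown each.

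**Figure D3:**
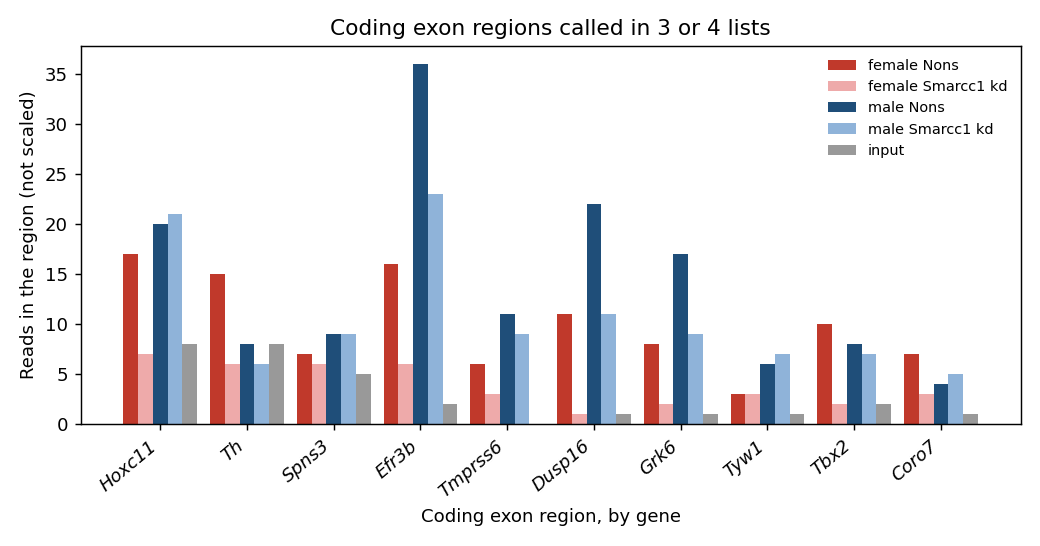
Reads (vertical axis, not scaled for depth) in the 10 coding exon regions called in 3 or 4 lists that ranked first by number of lists and then by mean rank of fold over input, named by gene (horizontal axis), in the 4 ChIP libraries and the input. Efr3b reached 36 reads in male Nons, and input reads were 0 to 8.

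Peaks of highest fold in a list were, in each list, regions with no input read. In male Nons they were Pycr1 (proline synthesis, 19 reads), Wdr59 (18), Cyp26b1 (retinoic acid breakdown, 16), Arhgap22 (15) and Col11a2 (15). The other libraries held 0 to 7 reads in these 5 regions. In male knockdown they were Adamtsl2 (13 reads), Gsn, Rps6ka1 and Ube4b (12 each) and Cacna1g (11), where the other libraries held 1 to 6 reads. In female Nons they included Mfsd7a (13 reads, with 2 to 9 in the other libraries), Col6a1 (12, with 1 to 6) and Zadh2 (12, with 1 to 4). The lower reads of the other libraries follow from the choice of each region by its own list. Among the peaks named, Plxnb1 was in 3 lists, Ap2a2 and Arhgap22 were in 2, and the others were in 1.

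Regions shared by the Nons lists of both sexes, and absent from the knockdown lists, included Dnah17, Col1a1, Limk1 and Sv2c. Dnah17, an axonemal dynein heavy chain, held 9 and 13 reads in female and male Nons and 1 in each knockdown library. Col1a1, the fibrillar collagen chain, held 7 and 12 reads in Nons, none in female knockdown and 5 in male knockdown. Sv2c, a synaptic vesicle protein, held 6 and 10 in Nons, 2 in female knockdown and none in male knockdown. By the one-sided limit, a count of 0 allows up to 3 reads, which is 50.1 scaled reads in female knockdown. Regions called in both knockdown lists, or in a knockdown list and the Nons list of its sex, and in no other list, were led by Gnb1l, with 3, 5, 5 and 3 reads, Ap2a2, a clathrin adaptor subunit, with 11, 6, 5 and 4, and Pfkfb3, a regulator of glycolysis, with 9, 5, 2 and 1. These sets were chosen by the calls that their values describe.

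Across all regions, reads were compared by a model with sex and hairpin as terms and edgeR's quasi-likelihood test, on 71202 called autosomal regions. It left 1 residual degree of freedom and assumed that the hairpin acts alike in both sexes. With so few reads per region and a common dispersion of 0.394 it had little power, so a lack of calls does not show a lack of difference. Fewer regions passed an unadjusted p under 0.05 than that threshold gives by chance, and the shares below are a description only. No coding exon region of 10057 tested was called at a Benjamini-Hochberg adjusted p under 0.05 for sex or for hairpin, where 0% of all regions were called. At an unadjusted p under 0.05 there were 48 coding exon regions for sex and 57 for hairpin, or 0.477% and 0.567%, beside 0.421% and 0.417% of all regions. DESeq2 also called 0 regions. At an unadjusted p under 0.05 it gave 45 and 28 coding exon regions, or 0.447% and 0.278%, beside 0.449% and 0.333% of all regions, so for hairpin the order of the shares was opposite to that of edgeR. The median log2 difference of knockdown over Nons was -0.71 in coding exon regions and -0.70 in all regions. With TMM factors it was -0.44 in both. These regions were called in the compared libraries themselves, and in each sex the Nons list was longer than the knockdown list. That choice can make the medians negative by itself, so they do not measure an effect of the hairpin.

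To compare read levels without the choice of regions by the compared libraries, summed reads were taken in regions called in other libraries. In 7590 coding exon regions called in the male lists, scaled reads of female knockdown were 0.635 times those of female Nons (0.619 to 0.651). The ratio was 0.637 in intron regions and 0.634 in promoter regions, and coding exon over intron was 0.997 (0.966 to 1.03), so the lower level was shared by the classes. In 3315 coding exon regions called in the female lists, male knockdown was 0.944 times male Nons (0.922 to 0.967), against 1.00 in introns and 0.958 at promoters. Coding exon over intron was 0.944 (0.917 to 0.971) in males. Without regions called in either male list it was 0.981 (0.947 to 1.02), which includes 1, and the ratio in coding exon regions itself became 1.02 (0.990 to 1.05). That filter uses calls of the compared libraries themselves, of which male Nons had the longer list, so it can raise the ratio by itself. Under it the ratio also rose in introns, to 1.04, and at promoters, to 1.02. Without that filter, the male ratio differed by GC content. It was 1.00 in coding exon regions and 1.03 in introns at 50% to 55% GC, and 0.916 and 0.969 at 55% to 60%. At 60% to 65% GC it was 0.872 (0.809 to 0.938) and 0.880 (0.795 to 0.975). Promoters gave 1.01, 0.929 and 0.920 in these classes. Between the sexes, female Nons was 1.09 times male Nons (1.06 to 1.12) in 2532 coding exon regions called in the knockdown lists, against 1.16 in introns and 1.02 at promoters. Most of these coding exon regions came from male cells, as the male knockdown list held 2251 coding exon peaks and the female one 295. The effect of that uneven choice was not tested. Coding exon over promoter was 1.06 (1.02 to 1.10). Without regions called in either Nons list, a filter of the same kind, it was 1.04 (0.994 to 1.09), which includes 1. At 50% to 55% GC the order turned, with 1.08 in coding exon regions and 1.15 at promoters.

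Over input, coding exon regions held more reads than intron regions in every library. In regions called in the other sex, scaled ChIP reads were 6.46 times the input reads in coding exon regions and 6.10 times in intron regions for female Nons, and 4.10 and 3.89 times for female knockdown. The male libraries gave 6.16 and 5.54 times (Nons) and 5.82 and 5.54 times (knockdown). Input reads also served as the control of the peak caller. The order changed within 55% to 60% GC. There coding exon regions were at 7.09 (6.93 to 7.26) and intron regions at 7.70 (7.55 to 7.86) for female Nons, and at 6.74 (6.53 to 6.95) and 7.16 (6.96 to 7.36) for male Nons. Male knockdown gave 6.17 and 6.94, and female knockdown 4.40 (4.25 to 4.55) and 4.64 (4.51 to 4.78), whose intervals overlap. Within 50% to 55% GC coding exon regions stayed above introns in male Nons, at 5.98 (5.75 to 6.22) and 5.56 (5.43 to 5.68). The intervals overlapped in female Nons, at 6.43 and 6.32, and in both knockdown libraries. Within 60% to 65% GC coding exon regions were lower than introns in every library. There female Nons gave 5.47 (5.22 to 5.73) and 6.23 (5.83 to 6.65), male Nons 5.76 and 6.21, and male knockdown 5.02 and 5.47. Female knockdown gave 3.65 and 4.04, and the intervals overlapped in all libraries but female Nons.

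**Figure D4:**
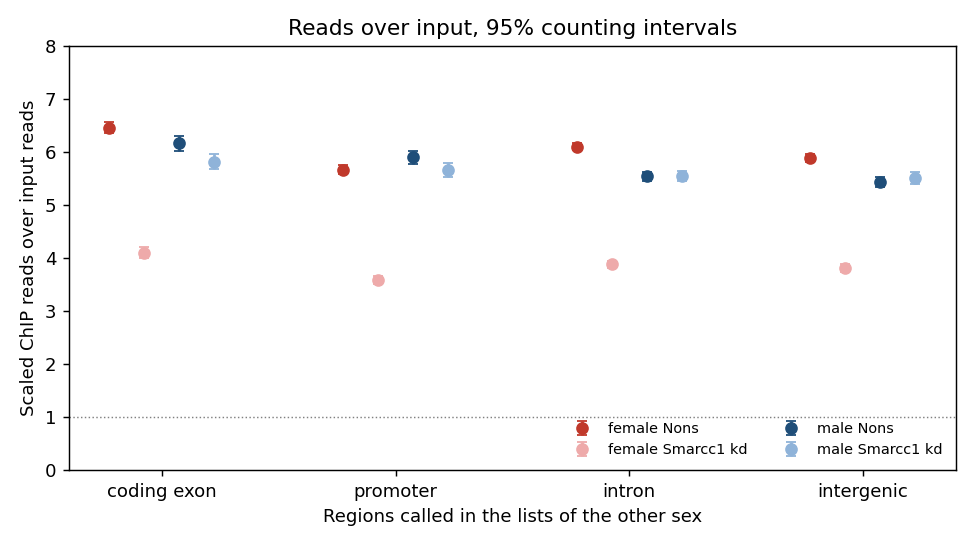
Scaled ChIP reads divided by input reads (vertical axis, linear from 0) in regions called in the lists of the other sex, by position (horizontal axis), for each library. Bars are 95% intervals for counting error, and the dotted line marks 1. Female knockdown lies lowest in every class, at 4.10 in coding exon regions.

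The regions were spread over many genes. Of 18254 protein-coding genes with CDS more than 1000 bp from a TSS, 5505 (30.2%) held a coding exon region, 2276 held 2 or more and 297 held 5 or more. Genes with the most regions included Hmcn2, a giant matrix protein of the hemicentin family (21 regions), Dnah17 (17), Sspo, the Reissner fibre protein SCO-spondin (16), Lrp1, a lipoprotein receptor (15), and Abca3, a lipid transporter (14). Crocc2, Itpr3 and Otog held 13 each, as did Hectd4 and Hspg2. Number of regions and coding length were related over the 18254 genes (Spearman's rho 0.342), as a description across genes. Per coding length, Abca3 held 2.92 regions per kb and Crocc2 2.69, against 1.46 in Hmcn2 and 1.07 in Hspg2.

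The density of regions varied widely with the GC content of the gene. Over all genes there were 421 coding exon regions per Mb of CDS away from a TSS. In genes whose CDS was under 45% GC the density was 17.3 per Mb, with a region in 73 of 3507 genes. It was 117 per Mb at 45% to 50%, 456 at 50% to 55%, 971 at 55% to 60% and 856 at 60% or more, where 768 of 1588 genes held a region. By chromosome it ran from 229 per Mb on chromosome 13, whose CDS was 48.5% GC, to 575 per Mb on chromosome 8, at 52.3% GC.

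Gene families were therefore described beside all genes and beside genes of the same GC classes. Transcription factor families of the Hox and forkhead genes had 1.72 and 1.74 times the density of all genes, and 0.977 and 0.997 times that of genes of the same GC classes. Collagens, the fibrous proteins of the matrix, held 117 regions in 28 of 42 genes, led by Col27a1 (11), Col16a1 (10) and Col2a1 (10), at 1.69 times all genes and 0.975 times genes of the same GC. Laminins and large matrix proteins, with Hspg2 (13) and Ltbp2 (12), held regions in 22 of 26 genes, at 1.36 and 0.985 times. These families thus had high density beside all genes and about that of other genes of their GC content.

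Each family's number of regions was also set beside the number that the density of genes of the same GC classes would give, with the exact Poisson interval of the family's own count. Regions of 1 gene need not be independent, so these intervals are a description. Calcium and sodium channels held 68 regions (52.8 to 86.2) in 14 of 19 genes, against 49.4 at the same GC, among them Cacna1c (9) and Cacna1a (8). Myosin and dynein heavy chains held 183 regions (157 to 212) in 42 of 53 genes, against 144, led by Dnah17 (17) and Dnah1 (11). These were the 2 lists whose interval lay above the number at the same GC. Corepressors and histone deacetylases, at 2.02 times the density of all genes, held 32 regions (21.9 to 45.2) in 13 of 21 genes, against 23.7, among them Hdac4 with 5 regions and Hdac5 with 3.

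In 4 lists the interval lay below the number at the same GC. Olfactory receptors, which are expressed in the nose, held 3 regions (0.619 to 8.77) in 2 of 249 genes, against 11.5. Protocadherins held 25 (16.2 to 36.9) in 22 of 66 genes, against 64.7, and zinc finger genes named Zfp held 125 (104 to 148.9) in 82 of 377 genes, against 189. Keratins held 23 (14.6 to 34.51), just under 34.55. Like the tiles, the coding sequence was not filtered for uniqueness, and the effect of that on these counts was not tested.

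The other lists had intervals that hold the number at the same GC. Genes for BAF subunits, the complex to which Smarca4 belongs, held 26 regions (16.98 to 38.1) in 16 of 29 genes, against 33.2, led by Arid1b with 5. Pluripotency and formative genes held 10 (4.80 to 18.4) in 8 of 33 genes, against 16.7, among them Dnmt3a, a DNA methyltransferase, with 2. Histone methyltransferases held 40 (28.6 to 54.5) against 53.5, with 11 regions in Kmt2d. As ratios to genes of the same GC, Sox genes gave 0.681, Adamts proteases 0.729, potassium channels 0.750 and ribosomal proteins 0.621. Semaphorins and plexins gave 0.960, adhesion G-protein-coupled receptors 0.983 and the Lrp, Notch and cadherin group 1.01. No test was made on any family.

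**Figure D5:**
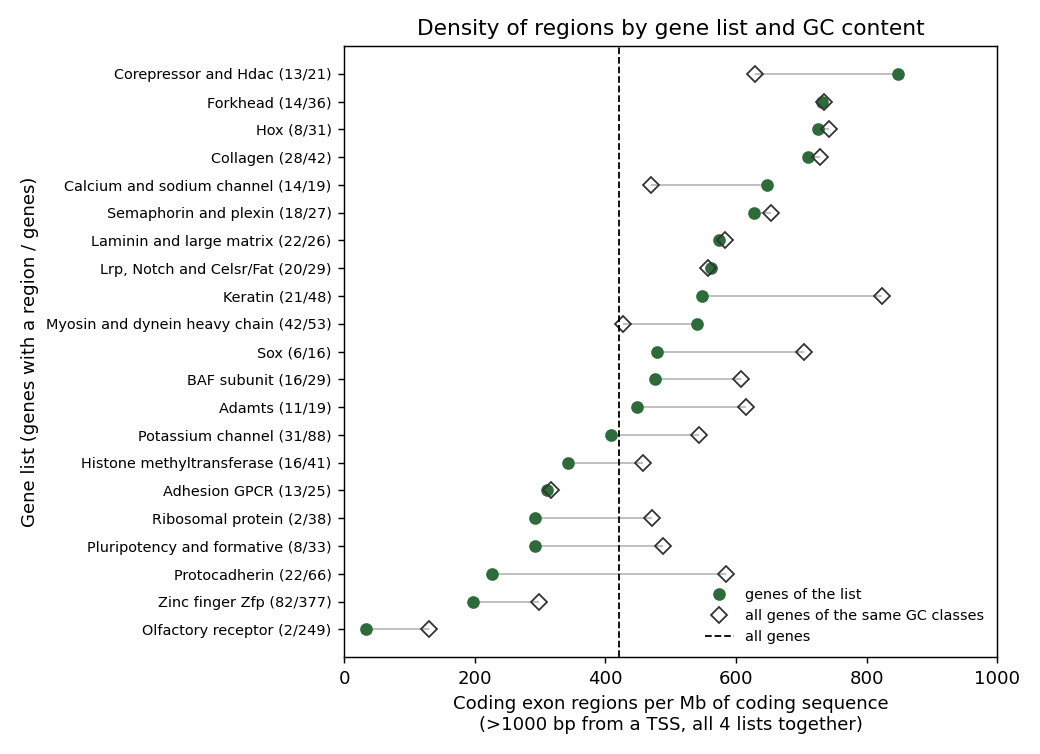
Coding exon regions per Mb of CDS more than 1000 bp from a TSS (horizontal axis) in 21 gene lists (vertical axis, with genes holding a region out of all genes). Filled circles are the list, open diamonds all genes weighted to the same GC classes, and the dashed line all genes at 421 per Mb. Circle and diamond nearly coincide for Hox, forkhead and collagen genes.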

How the data were processed

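Per the study's methods, chromatin of mESCs was precipitated with an antibody to Smarca4, and single-end reads were trimmed with trim_galore, aligned to mm10 with bowtie2, freed of duplicates and searched for peaks in Seqmonk against the input. A form that accompanies the study names tophat for the alignment, and the submitters' processing notes name Bowtie2 and MACS2, so the aligner is uncertain. The authors deposited, for each peak, a signal per ChIP library, brought to the input's depth, and a count of input reads.

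The deposited signal was a whole number of reads times 1 factor per library in 100% of 78911 values per library (tolerance 0.01 reads), and dividing by that factor gave back the reads. The lists hold no fold or q from the caller, so fold over input was the signal divided by input reads plus 1. Genes and TSS came from GENCODE vM21 and sequence from the RefSeq copy of GRCm38, the same build. Overlap was counted from 1 bp. Shares have exact Clopper-Pearson intervals and ratios exact conditional ones, at 95%, and a ratio of ratios has an interval from the Poisson variances of the logs. Library sizes followed the value of 1 read, and GC content of each gene list was weighted by coding bases. edgeR 4.0.16 and DESeq2 1.42.0 in R 4.3.3 were fitted to the recovered counts. The edgeR fit was first run on simulated data, whose dispersion was set below that of the real regions. scipy 1.17.1 and pysam 0.24.0 were used.

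Members and gene lists were chosen with earlier results of these data known. Comparisons within GC classes (gene lists included) and peak widths, and regions of at most 20 reads, were added after the data were seen. Named regions were the 5 of highest fold per list, up to 10 in 3 or 4 lists, 5 in both Nons lists only, 5 in both knockdown lists or a knockdown list and its Nons list, the 10 genes with most regions (with ties) and up to 3 genes per gene list. Sequences of 2 further genes were picked after their values were seen. X-linked peaks were not used, and some items these rules name are not reported here.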

Additional observations from a re-analysis of the deposited data

How the results depend on the processing

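With 1 library per group these data do not show the variation between cultures, and leaving out a library gives no value. No paired analysis was possible because the labels give no replicate numbers to pair by, other than the fit with sex and hairpin as terms, which sets knockdown beside Nons within each sex. Depth is a limit too: with 5 to 10 reads in a typical peak, a region absent from a list is not shown to lack Smarca4. Of 78 alternative values of shares and ratios, 42 stayed within the interval of the reported value, 35 moved out of it, and 1 reversed: the male knockdown over Nons ratio of scaled reads, below 1 as reported, was 1.02 without regions called in the compared libraries. That filter acts on the libraries it compares, and the ratio also rose under it in introns and at promoters. The 4 medians of GC content stayed within the quartiles.

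The coding exon share rested on the definition. Requiring that at least 50% of a peak codes gave 4.35% and 3.05% for female Nons and knockdown and 5.16% and 4.61% for male Nons and knockdown, with an odds ratio of 0.835 for female over male Nons. More than 2000 bp from a TSS gave 11.8%, 9.14%, 12.2% and 10.8%, and there the odds ratio of female over male Nons was 0.969 (0.920 to 1.02). Input under 5 gave 13.3% in female Nons, 14.3% in male Nons and 12.4% in male knockdown. Keeping the 50% of peaks that had the highest fold gave 13.5% in female Nons and 12.2% in male knockdown, with odds ratios of 0.775 for male knockdown over Nons and 0.869 for female over male Nons. Peaks of 300 bp gave 12.3% in female Nons, 13.3% in male Nons and 11.9% in male knockdown. Peaks of 450 bp gave 12.6% in female knockdown and 14.8% in male knockdown, with odds ratios of 0.825 and 0.947 for knockdown over Nons. Thinned by expectation to the depth of female knockdown, with at least 5 reads, the shares were 16.2% in female Nons, 18.2% in male Nons and 15.002% in male knockdown, beside 11.0% in female knockdown. Thinning called no peaks anew. The cause was not tested, other than the narrower definitions themselves.

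Overlaps fell when 50% of both peaks had to be shared, to 14.7% of female Nons peaks in male Nons, 7.46% of female knockdown peaks in female Nons and 14.8% of male knockdown peaks in male Nons. With the 50% of highest fold in each list they were 15.7% for female Nons in male Nons and 14.4% for male knockdown in male Nons. Without regions called in the compared libraries, the knockdown over Nons ratio of scaled reads was 0.699 for females and 1.02 for males, female over male Nons was 1.13, and coding exon over intron in males was 0.981. These values rest on the compared libraries' own calls and are not an independent check. Where at least 50% of the peak coded, female over male Nons was 1.05. TMM factors, a minimum of 20 reads and DESeq2 each left 0 regions called, in fits that also had little power.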
